A study of Mus musculus with 6 samples.

Results

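The THO complex and the export receptor it feeds are described here through 10 genes, of 14986 in the table of mouse long-term haematopoietic stem cells. They are the THO subunits Thoc1, Thoc2, Thoc3, Thoc5, Thoc6 and Thoc7, the adaptors Alyref and Sarnp, and the receptor pair Nxf1 and Nxt1. They were taken by gene symbol, and all 10 are in the table and passed the expression filter, a mean of at least 1 FPKM (fragments per kilobase of exon, scaled to the reads of the library) over the 6 libraries. Long-term haematopoietic stem cells (LT-HSC) are the rare marrow cells that maintain all blood lineages. They were sorted from lineage-depleted bone marrow, 1500 cells per library, into 3 libraries with the genotype wild type and 3 with the genotype ZCCHC8 KO (below, KO). The sources used here do not give how Zcchc8 was deleted, the strain, the age of the animals or whether the replicates are separate animals. The p-values therefore measure the spread between these libraries, which may be technical.

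THO is a multi-subunit complex that loads onto messenger RNA while it is still being made. With the helicase DDX39B and the adaptor ALYREF it forms TREX, which hands the packaged RNA to the heterodimer of NXF1 and NXT1 for passage through the nuclear pore. Cells that lack THO accumulate R-loops, hybrids of new RNA with the DNA template, and Thoc5 is known to be needed for the upkeep of blood-forming cells in mice. ZCCHC8 holds together the nuclear exosome targeting complex, through which short-lived nuclear RNA is sent to decay, and the study's title ties that complex to R-loops in these stem cells. The comparison of KO with wild type asks here whether the RNA levels of the THO and export machinery differ when ZCCHC8 is deleted.

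None of the 10 genes passed the test between KO and wild type. By limma, 0 of 10 reached an adjusted p of 0.05, against a background of 0.228% of the 11837 tested genes (27 genes), and 0 of 10 had an unadjusted p under 0.05, against 9.2% (4.87% higher and 4.33% lower in KO). With limma-voom on recovered reads the count was also 0. The smallest adjusted p among them was 0.746, that of Thoc5. The median log2 change of the 10 was -0.01, beside 0.00 over all tested genes, with 4 higher by value in KO and 6 lower. Here and below, higher or lower by value goes by the sign of the log2 change of FPKM + 1. That sign can differ from the direction of mean FPKM, as for Thoc1, at 1.98 FPKM in wild type and 1.94 in KO. On the log2(FPKM + 1) scale the 95% intervals of all 10 lay within a 2-fold change in either direction, and those of Thoc3, Sarnp and Nxt1 within 1.5-fold. That scale understates the change of low genes. With a pseudocount of 0.1 in place of 1, the intervals of 7 lay within 2-fold, and those of Thoc1, Thoc7 and Alyref reached beyond it.

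**Figure D1:**
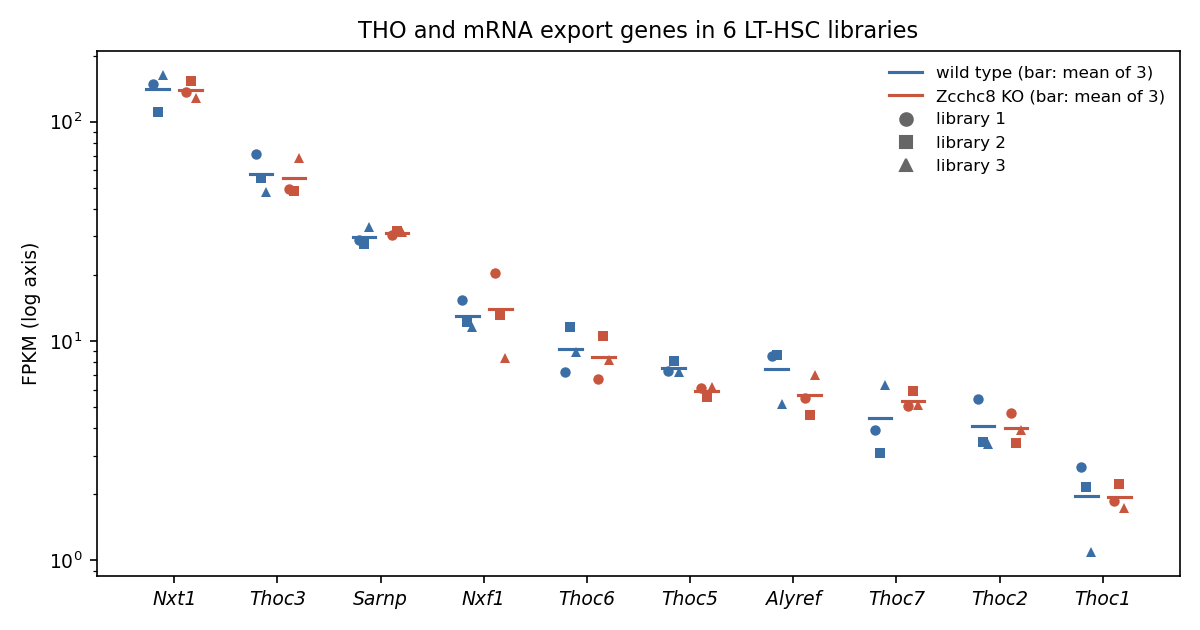
FPKM on a log axis of each of the 10 genes, ordered by mean level, in 3 wild-type (blue) and 3 KO (red) libraries, with bars at group means. Levels span from 1.10 FPKM for Thoc1 to 164.0 FPKM for Nxt1, and only the values of Thoc5 separate the groups.

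The libraries and their labels bear on all that follows. Zcchc8 measured 8.93, 5.24 and 5.16 FPKM in wild type, and 10.4, 5.54 and 5.92 in the KO libraries. Its level summed over all exons was not lower in KO and does not check the labels. Of 12 listed LT-HSC markers, 10 were at 1 FPKM or more in every library, and their summed level was 431.4 to 487.5 FPKM in wild type and 330.4 to 384.0 in KO. The summed levels of other lineages also differed between the groups. Erythroid markers summed to 115.2 to 149.0 FPKM in wild type and 436.0 to 465.0 in KO, and eosinophil markers to 0.116 to 1.02 and 161.0 to 204.9. B cell markers summed to 809.0 to 926.4 and 82.1 to 117.1. Without the light chain gene Igkc, which was at 746.1 to 865.8 in wild type and 0 to 1.35 in KO, they summed to 60.6 to 69.4 and 82.1 to 115.8. Neutrophil and monocyte markers summed to 2692 to 2896 and 3600 to 4020. T and NK cell markers summed to 189.0 to 232.4 and 310.2 to 323.4, and endothelial and stromal markers to 7.96 to 10.6 and 10.6 to 12.6. The part of these in the levels below was not tested. In bulk RNA of sorted cells, fewer cells of a type and less RNA per cell cannot be told apart.

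The stretches of DNA next to the members whose values or neighbours are discussed most are shown first. Both are from RefSeq's promoter table (GRCm38.p6), written 5′ to 3′ on the gene's strand, with a match to the ETS motif CCGGAAG, on either strand, in capitals. The first lies between the start sites of Alyref and Anapc11, which are transcribed away from each other, and the second is upstream of Thoc5, the member whose groups did not overlap.
Alyref to Anapc11 (chr11:120598366-120598420, minus strand): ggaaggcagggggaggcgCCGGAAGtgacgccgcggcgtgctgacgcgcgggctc
Thoc5 upstream (chr11:4895170-4895319, plus strand): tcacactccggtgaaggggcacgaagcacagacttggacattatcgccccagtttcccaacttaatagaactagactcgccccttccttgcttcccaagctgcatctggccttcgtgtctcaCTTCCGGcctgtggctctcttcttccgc
The 55 bp between Alyref and Anapc11 hold 9 CpG dinucleotides and are 78.2% G and C, while the 150 bp upstream of Thoc5 hold 7 CpG and are 55.3% G and C.

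Promoter windows, from 250 bases before to 50 after a start, were taken for 8 of the 10 members, 11 windows in all. No window was found for Thoc3. The windows of Nxt1 overlap each other almost wholly, as do those of Nxf1, so the window counts below repeat their bases. For the members, windows on chromosome 18, where Thoc1 lies, were left out, while those of all genes of the table were kept. The G and C content of the members' windows ranged from 51.3% to 81.3% with a median of 59%. Over 13476 windows of genes in the table the median was 60%. The CpG counts of the members' windows had a median of 21 beside 19. The GC box GGGCGG was in 9 of the members' 11 windows, from 7 of the 8 members, and in 58.8% of all windows. The CCAAT box (CCAAT) was in 5 of the 11, from 4 members, and in 38.2% of all windows. The TATA box (TATAAA) was in 1 of the 11, that of Alyref, and in 7.77% of all windows. The ETS motif was in 2 of the 11, those of Alyref and Thoc5, and in 16.5% of all windows. The CRE motif TGACGT was in none of the members' windows and in 10.8% of all. Both strands were searched, no motif contains another, and a match is a match of letters.

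The members differed widely in level. Nxt1, the small partner of NXF1, stood highest, from 111.0 to 164.0 FPKM over the 6 libraries with a median of 143.1. Thoc3, a subunit built of WD repeats, followed at 47.6 to 71.2, and Sarnp, an adaptor that binds DDX39B, at 27.6 to 33.2. These 3 were separate from each other and from the rest in every library. Nxf1, the export receptor, stood at 8.42 to 20.5 FPKM and Thoc6, another WD repeat subunit, at 6.72 to 11.6. Thoc5, Alyref, Thoc7 and Thoc2 followed with ranges that overlapped from each to the next, so neighbours in this order do not differ beyond their spread. The ends of this run did not overlap, with Thoc5 at 5.55 to 8.08 FPKM and Thoc2 at 3.38 to 5.43. Thoc1 was lowest, at 1.10 to 2.67 FPKM, below Thoc2 in all 6 libraries with no overlap. In percentiles of mean FPKM among tested genes, Nxt1 was at 96, Thoc3 at 89.7, Sarnp at 81.5 and Nxf1 at 64.3, while Thoc2 was at 31.4 and Thoc1 at 12.8.

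FPKM depends on the exon length it is divided by, and this length changes the order. The deposited values matched the summed length of all annotated exons of a gene, which for Thoc7 is 6561 bp, while its principal transcript is 937 bp. Divided by the principal transcript, a choice made after seeing the data, the mean level of Thoc7 over the 6 libraries was 34.3 in place of 4.90, and Thoc7 moved from the 8th to the 4th place. On that scale Sarnp stood at 45.2, Nxf1 at 25.8 and Thoc1 at 4.23. By mean, Nxt1, Thoc3 and Sarnp stayed the 3 highest and Thoc1 the lowest on both scales. Per principal transcript, however, the range of Sarnp (40.9 to 49.2) overlapped that of Thoc7 (21.5 to 44.4). Likewise, Thoc1 (2.37 to 5.76) overlapped Thoc2 (5.62 to 9.02). Reads from the other exons are counted on both scales, so neither scale gives the level of 1 transcript. The ratio of 1 gene's levels between libraries is the same on both, while sums over genes are not.

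Among the 6 THO subunits, Thoc3 made up 63.6% to 73.2% of the summed FPKM in each library, with no separation of the groups. The sum of all 6 was 85.3 ± 11.7 FPKM in wild type against 81.3 ± 10.8 in KO (SD, n = 3, exact two-sided permutation p = 0.6). Without Thoc3 it was 26.5, 28.4 and 26.9 in wild type and 24.5, 27.7 and 25.1 in KO. These sums overlapped between the groups (exact permutation p = 0.3, where 0.1 is the smallest that 3 libraries against 3 allow). The shares and sums depend on the length used. Per principal transcript, Thoc3 made up 40.2% to 54.7% and Thoc7 18.7% to 36.0% of the sum. On that scale the sum of all 6 was 124.56 ± 10.06 in wild type against 125.15 ± 10.35 in KO (exact permutation p = 0.7). The sum without Thoc3 was 64.3 ± 8.25 in wild type against 67.5 ± 5.10 in KO (exact permutation p = 0.6). For both sums the group with the higher mean turned. The groups overlapped on both scales.

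Thoc1 and Thoc2, at the core of THO, did not separate the groups. Thoc1 (chromosome 18), the subunit known as HPR1 in yeast, measured 2.67, 2.17 and 1.10 FPKM in wild type and 1.86, 2.23 and 1.74 in KO. Wild-type library 3 was lowest and wild-type library 1 highest, so the KO values lay inside the wild-type range. Its log2 change was 0.02 ± 0.35 (SE), with a 95% interval from -0.77 to 0.81 (limma adjusted p = 0.993). Thoc2 (chromosome X, 41794991 to 41920674, minus strand), the large subunit on which the complex assembles, measured 5.43, 3.48 and 3.38 FPKM in wild type and 4.68, 3.45 and 3.92 in KO. Library 1 was the highest of its group in both, and the groups overlapped. The log2 change of Thoc2 was -0.01 ± 0.30, with an interval from -0.69 to 0.68 (adjusted p = 0.997).

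The WD repeat subunits likewise did not separate the groups. Thoc3 (chromosome 13, 54458837 to 54468849, minus strand) measured 71.2, 55.2 and 47.6 FPKM in wild type and 49.5, 48.4 and 68.6 in KO. Wild-type library 1 and KO library 3 stood above the other 4, and the log2 change was -0.06 ± 0.20 (adjusted p = 0.958). Thoc6 (chromosome 17, 23668614 to 23673882, minus strand) measured 7.22, 11.6 and 8.90 FPKM in wild type and 6.72, 10.6 and 8.20 in KO. Library 2 was the highest of each group, and the log2 change was -0.10 ± 0.27 (adjusted p = 0.946).

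The coiled-coil pair Thoc5 and Thoc7, whose proteins bind each other within THO, pointed in opposite directions by value. Thoc5 (chromosome 11, 4895320 to 4928867, plus strand; sequence upstream shown above) measured 7.30, 8.08 and 7.23 FPKM in wild type and 6.13, 5.55 and 6.18 in KO. All 3 KO values were below all 3 wild-type values, a mean of 7.54 ± 0.474 against 5.95 ± 0.351 (SD, n = 3), or 0.790-fold. It was the 1 member of 10 whose groups did not overlap, where 15.2% of all tested genes did not, 6.99% being lower in KO and 8.24% higher. An exact permutation test, two-sided, gave p = 0.1, the smallest possible here. By limma, which shares its estimate of spread among genes, the log2 change was -0.30 ± 0.24, with an interval from -0.84 to 0.24 (adjusted p = 0.746), so Thoc5 did not pass. The value rests on 301 to 451 reads per library. Thoc7 (chromosome 14, 13949012 to 13961852, minus strand) measured 3.92, 3.07 and 6.34 FPKM in wild type and 5.06, 5.92 and 5.09 in KO. The wild-type libraries spread over 2.06-fold and enclosed the KO values, and the log2 change was 0.27 ± 0.31 (adjusted p = 0.838). Without wild-type library 2 it was 0.080, and without wild-type library 3 it was 0.50.

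**Figure D2:**
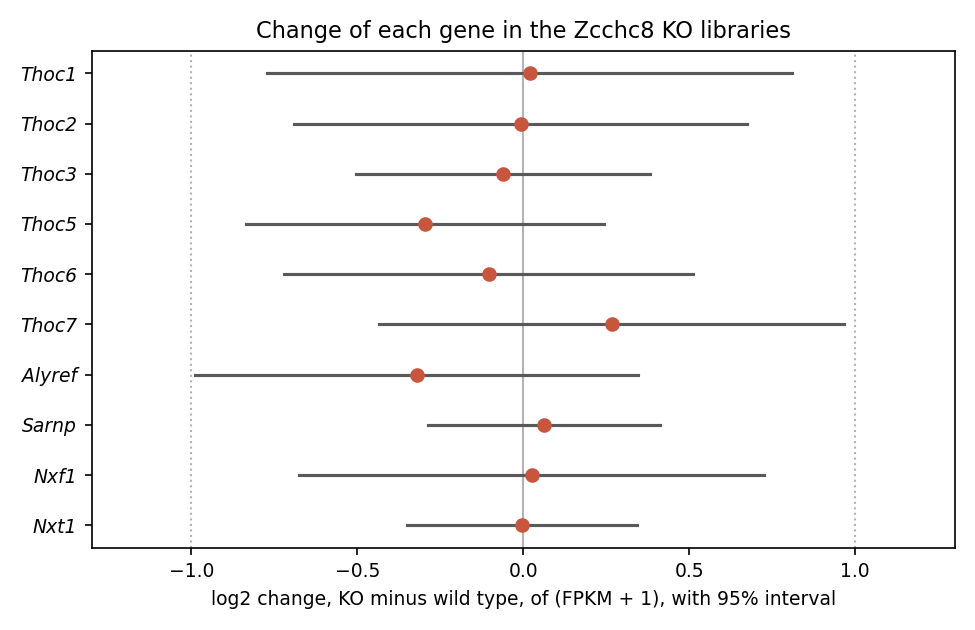
Log2 change of FPKM + 1, KO minus wild type, of each gene (point) with the 95% interval from limma over 3 libraries per group (line). Dotted lines mark a 2-fold change; every interval includes 0, from the narrow one of Nxt1 (-0.35 to 0.34) to the wide one of Thoc1 (-0.77 to 0.81).

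Of the adaptors, Alyref had the log2 change of largest size among the members and Sarnp was the steadiest. Alyref (chromosome 11, 120592121 to 120598365, minus strand), which bridges the helicase and the receptor, measured 8.57, 8.61 and 5.18 FPKM in wild type and 5.52, 4.59 and 6.99 in KO. Wild-type library 3 lay among the KO values, and the log2 change was -0.32 ± 0.29, with an interval from -0.99 to 0.34 (adjusted p = 0.788). Leaving out 1 library at a time gave log2 changes of Alyref from -0.53 (without wild-type library 3) to -0.20 (without KO library 2), with adjusted p from 0.697 to 0.910. Sarnp (chromosome 10, 128817333 to 128877629, plus strand) measured 28.8, 27.6 and 33.2 FPKM in wild type and 30.4, 31.6 and 31.4 in KO. Its highest library was 1.20 times its lowest, the smallest spread of the 10, and the log2 change was 0.06 ± 0.15 (adjusted p = 0.943).

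Neither gene of the receptor pair separated the groups, and Nxf1 varied widely within KO. Nxf1 (chromosome 19, 8757073 to 8770922, plus strand) measured 15.5, 12.2 and 11.6 FPKM in wild type and 20.5, 13.2 and 8.42 in KO. KO libraries 1 and 3 were the highest and the lowest of all 6, a 2.43-fold spread within the group, and the log2 change was 0.03 ± 0.31 (adjusted p = 0.991). Without KO library 1 the log2 change of Nxf1 was -0.27, and without KO library 3 it was 0.32. Nxt1 (chromosome 2, 148672601 to 148676027, plus strand) measured 148.9, 111.0 and 164.0 FPKM in wild type and 137.3, 153.4 and 128.0 in KO. The KO values lay inside the wild-type range, and the log2 change was 0.00 ± 0.15, with an interval from -0.35 to 0.34 (adjusted p = 0.998). The ratio of Nxt1 to Nxf1 FPKM was 11.0 ± 2.77 in wild type against 11.2 ± 4.26 in KO (SD, n = 3).

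Several members have relatives elsewhere in the genome, which bears on how their reads were counted. Transcripts of other genes that matched a member over at least 400 bp at 85% identity or more were found for Alyref (24 genes) and for Thoc1, Thoc2, Thoc3, Sarnp and Nxt1 (1 each). For Thoc1 the match is the overlapping gene Usp14 on the opposite strand, which shares 24.3% of its exon bases. Sarnp matched the processed pseudogene Gm6563 at 99.1% identity over 433 bp, and Nxt1 a processed pseudogene at 94.1% over 427 bp, neither of which was analysed here. For Thoc5 and Nxf1 no match was found. Thoc6 and Thoc7 had no long match, but shorter matches of at least 150 bp to 1 and 776 other genes. What the 776 share with Thoc7 was not examined, so they are not counted as its relatives. Only the longest transcript of each member was compared, so matches of its other exons are not covered. How reads that match several places were treated is not stated in the labels or notes, so the levels of the matched genes are uncertain to that extent.

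Alyref2, an intronless relative that encodes a second ALYREF-like adaptor (chromosome 1, 171503478 to 171504750), matched Alyref at 86.0% identity over 833 bp. It measured 3.65, 6.44 and 3.49 FPKM in wild type and 6.94, 7.00 and 7.05 in KO. All KO values were above all wild-type values, and the log2 change was 0.57 ± 0.29 (unadjusted p = 0.0826, adjusted p = 0.594), so Alyref2 did not pass. It rests on 84 to 227 reads per library. The share of Alyref2 in the sum of the 2 genes' FPKM was 29.9%, 42.8% and 40.3% in wild type and 55.7%, 60.4% and 50.2% in KO. These shares did not overlap between the groups, a mean of 37.6% ± 6.83 against 55.4% ± 5.10 (SD, n = 3, exact two-sided permutation p = 0.1, the smallest it can give). The share was chosen after the values of both genes were seen. The sum of both genes was 12.0 ± 3.20 FPKM in wild type against 12.7 ± 1.25 in KO.

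Thoc3 and its processed pseudogene Gm5253, which matches it at 87.0% identity over 1059 bp, were high in the same libraries. Gm5253 measured 40.6, 40.0 and 27.8 FPKM in wild type and 30.6, 33.3 and 49.8 in KO. Wild-type library 1 and KO library 3 were the highest libraries of both, and Thoc3 was 1.38 to 1.75 times Gm5253 in each library. The log2 change of Gm5253 was 0.05 ± 0.23 (adjusted p = 0.970). Thoc2l, which RefSeq places at the position of the annotated relative of Thoc2 on chromosome 5 (86.5% identity over 5047 bp), measured 0.863, 0.708 and 2.23 FPKM in wild type and 1.43, 3.16 and 0.934 in KO. Its values overlapped between the groups, and the other relatives of Alyref in the table were under 1 FPKM in every library.

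**Figure D3:**
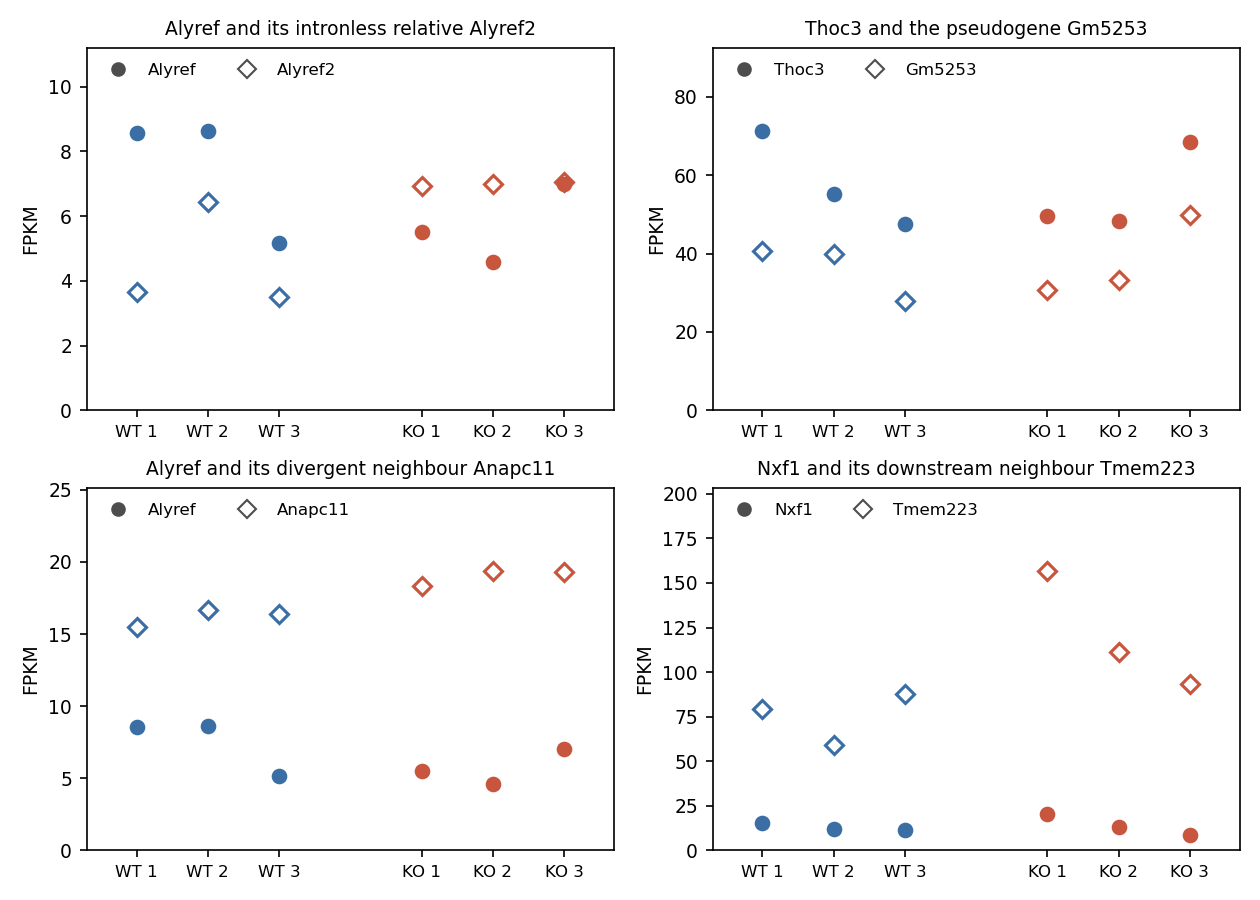
FPKM per library (wild type blue, KO red) of 4 pairs: a member (filled circles) and a relative or neighbouring gene (open diamonds). Alyref2, Anapc11 and Tmem223 are higher in each KO library than in any wild-type library, as are 8.24% of all tested genes. Anapc11 and Tmem223 are the 2 of 7 tested neighbours whose groups did not overlap, and the other neighbours are not drawn. Gm5253 and Thoc3 are highest in wild-type library 1 and KO library 3.

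By position, 3 of the 10 members (30%) have a coding gene that starts on the opposite strand within 1000 bp of their own start, beside 15.8% of the 12485 coding genes of the table. The pairs are Alyref with Anapc11, Thoc6 with Hcfc1r1 and Thoc7 with Atxn7. In RefSeq the starts of Sarnp and Ormdl2 also lie 135 bp apart on opposite strands, while in GENCODE the gene of Sarnp starts further upstream, inside Dnajc14. Thoc6 shares 14.6% of its exon bases with other genes, Thoc7 4.82% and Sarnp 4.04%. Whether strand was used in counting is not stated in the labels or notes either, so reads in shared bases cannot be assigned to either gene.

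Of the 7 tested genes that lie within 1000 bp of a member or overlap it, 0 passed an adjusted p of 0.05 by limma, 1 had an unadjusted p under 0.05, beside 9.2% of all tested genes, and 2 had groups that did not overlap, beside 15.2%. With limma-voom the number that passed was also 0. Tmem223, a small transmembrane protein gene that starts just downstream of Nxf1 on the same strand (chromosome 19, 8770996 to 8772475), measured 79.5, 59.0 and 88.0 FPKM in wild type and 156.6, 111.3 and 93.1 in KO. All KO values were above all wild-type values, with KO library 1 highest for Tmem223 as for Nxf1. Other libraries were ordered differently. KO library 3 was the lowest of all for Nxf1 (8.42 FPKM), and wild-type library 3 was the lowest wild type for Nxf1 but the highest for Tmem223. The mean was 75.5 ± 14.9 in wild type against 120.3 ± 32.7 in KO (SD, n = 3), or 1.59-fold, with a log2 change of 0.65 ± 0.21 (unadjusted p = 0.0133, adjusted p = 0.378). The adjusted p ranged from 0.289 to 0.657 over 13 alternatives.

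Anapc11, a catalytic subunit of the anaphase-promoting complex (chromosome 11, 120598421 to 120608198, plus strand), starts across the 55 bp from Alyref shown above. It measured 15.5, 16.7 and 16.4 FPKM in wild type and 18.3, 19.4 and 19.3 in KO. These groups did not overlap, the replicates lay close together, and the log2 change was 0.22 ± 0.18 (adjusted p = 0.746). Ormdl2, a regulator of sphingolipid synthesis, measured 16.5, 17.4 and 11.0 FPKM in wild type and 9.39, 9.92 and 11.5 in KO, with a log2 change of -0.48 ± 0.24 (unadjusted p = 0.0764, adjusted p = 0.592). Wild-type library 3 of Ormdl2 lay among the KO values. Hcfc1r1 had means of 48.4 ± 4.83 and 40.4 ± 10.2 FPKM, Atxn7 at 2.91 ± 0.916 and 2.37 ± 0.343, Usp14 at 10.3 ± 1.08 and 9.87 ± 2.55, and Dnajc14 at 8.07 ± 3.20 and 7.25 ± 3.45 in wild type and KO, with groups that overlapped.

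The rest of the export pathway was taken from lists of 47 genes, of which 45 were in the table and 44 were tested. None passed an adjusted p of 0.05 by limma, or by limma-voom among those with recovered reads. At an unadjusted p under 0.05 there were 2 of 44, both higher in KO, beside 9.2% of all tested genes. Their median log2 change was 0.03. The groups did not overlap for 6 of the 44, 4 higher and 2 lower, against 15.2% of all genes. The helicase Ddx39b, the TREX subunit that ALYREF and SARNP bind, measured 79.2, 74.2 and 58.9 FPKM in wild type and 70.4, 68.2 and 77.6 in KO. Its groups overlapped, with a log2 change of 0.04 ± 0.15 (adjusted p = 0.969), and its near relative Ddx39a was not analysed here.

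**Figure D4:**
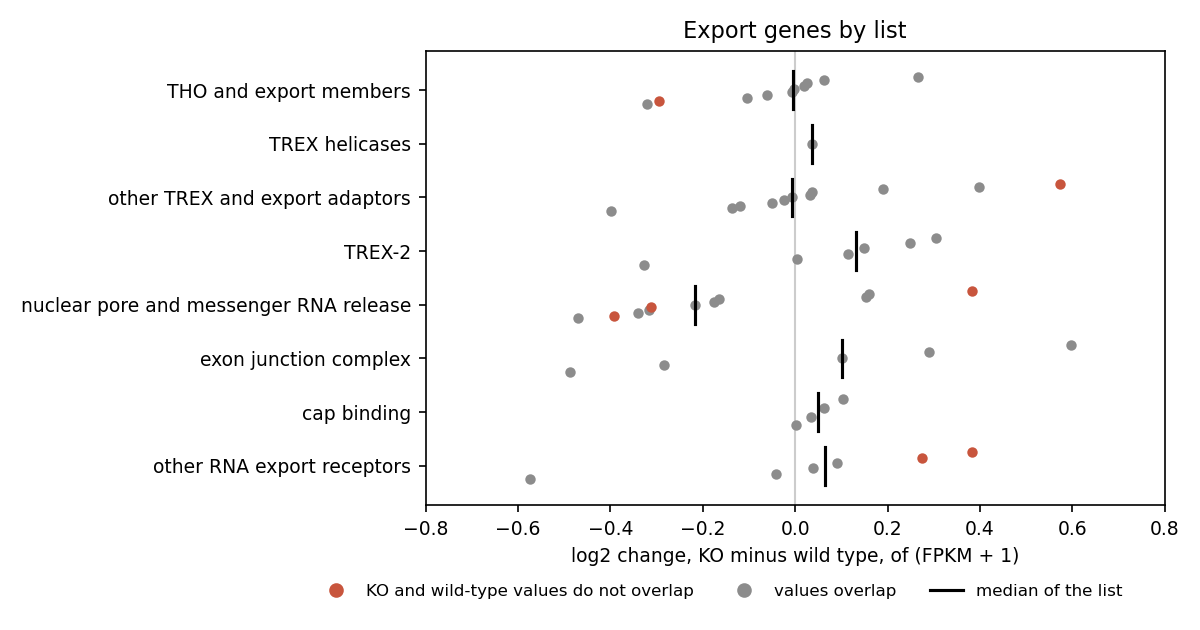
Log2 change of FPKM + 1, KO minus wild type, of the tested genes of each export list; red points are genes whose KO and wild-type values do not overlap, and bars are list medians. All points lie between -0.57 and 0.60.

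The 2 genes with an unadjusted p under 0.05 act at the pore and in transport through it. Rae1, which docks messenger RNA complexes at the pore with NUP98, measured 31.1, 33.6 and 30.3 FPKM in wild type and 40.3, 45.7 and 38.8 in KO. All KO values were higher, and the log2 change was 0.38 ± 0.15 (unadjusted p = 0.0294, adjusted p = 0.483). Ran, the GTPase that drives most other nuclear transport but not that by NXF1, measured 107.2, 103.8 and 102.0 FPKM in wild type and 129.0, 130.0 and 120.7 in KO, with a log2 change of 0.28 ± 0.10 (unadjusted p = 0.0219, adjusted p = 0.444). Neither passed. The pore and release list had 3 of 11 tested genes higher by value and 8 lower, with a median log2 change of -0.22. Tpr, of the nuclear basket, stood at 11.8 ± 0.615 FPKM in wild type against 9.33 ± 1.36 in KO without overlap (adjusted p = 0.711). Outside the naming rule and chosen after their values were seen, the pore gene Nup214 (3.64 ± 0.645 in wild type, 2.51 ± 0.135 in KO, adjusted p = 0.729) and the transfer RNA exporter gene Xpot (4.86 ± 0.600 in wild type, 6.67 ± 1.20 in KO, adjusted p = 0.706) also did not overlap. With Alyref2, Rae1, Ran and Tpr they make up the 6.

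The lists of TREX-2, other adaptors, the exon junction complex and cap binding had no gene at an unadjusted p under 0.05. In TREX-2, the complex that tethers transcribed genes to the pore, 5 of 6 genes were higher by log2 change, with a median of 0.13. Of these, Pcid2 had a log2 change of 0.003 and a lower mean FPKM in KO (13.9, against 14.4 in wild type). The centrin genes Cetn3 (33.7 ± 1.59 and 42.3 ± 8.55 FPKM in wild type and KO) and Cetn2 (54.5 ± 15.4 and 63.5 ± 6.08) had the smallest p of that list. Among other adaptors, with 5 of 11 higher and a median of -0.01, the splicing factor gene Srsf1 stood at 26.9 ± 1.73 and 36.3 ± 8.28 FPKM (adjusted p = 0.587). In the exon junction complex, which marks spliced RNA, 3 of 5 were higher by value. Rbm8a there stood at 21.1 ± 6.42 and 14.5 ± 2.38 and Eif4a3 at 21.4 ± 3.59 and 26.2 ± 2.48. The cap-binding genes were all 4 higher by log2 change with a median of 0.05, among them Ncbp1 (12.6 ± 4.03 and 12.8 ± 1.21) and Srrt (15.8 ± 1.53 and 17.1 ± 2.08). Ncbp2, at a log2 change of 0.003, had a lower mean FPKM in KO (52.1, against 53.9 in wild type). Xpo5, the exporter of microRNA precursors, stood at 6.22 ± 1.53 and 3.92 ± 1.39 (adjusted p = 0.637).

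The depth was from 18059317 to 25709662 reads per library, as recovered from the FPKM, and gave 185 to 430 reads per library for Thoc1 and 2266 to 3939 for Nxt1. The intervals above show what size of difference these libraries leave possible for each gene; a gene that did not pass is not shown to be unchanged.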

How the data were processed

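RNA levels were measured in 6 libraries of mouse LT-HSC, 3 per genotype, grouped and numbered by the sample titles. The submitters' processing notes name fastp, Bowtie2, featureCounts and mm10, without versions. Neither strandedness nor handling of multiply matching reads is given in the sources used here. The authors deposited 1 FPKM per symbol and library. Symbols were matched to GENCODE M21 (GRCm38) for 14669 of 14986 genes (97.9%). FPKM times exon length and depth came out whole (within 0.05) for at least 97.9% of values below 100 reads in each library, which gave the reads. Reads of amplified cDNA without molecular identifiers overstate the number of molecules.

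Genes whose mean reached 1 FPKM were tested on log2(FPKM + 1) by limma 3.58.1 in R 4.3.3 (lmFit, eBayes with trend, two-sided tests); p-values of 11837 genes were adjusted by Benjamini-Hochberg, with a threshold of 0.05. Every adjusted or unadjusted p of a gene is from limma; exact permutation tests used 3 against 3 libraries. The procedure was tested on simulated data. There it recovered 18.3% of genes changed by a log2 of 1 and 62% of those changed by a log2 of 2. Of its calls, 4.52% were false. Folds divide mean FPKM of KO by that of wild type. The members and lists were chosen with earlier results of these data known. The text names the members, Zcchc8, Ddx39b, the 2 genes of smallest p of each other export list with any further gene at an unadjusted p under 0.05, and, by position or likeness to a member, neighbours and relatives. Relatives were found with blastn 2.17.0. Alternatives changed the pseudocount, filter, scaling, variance model, block, unit and libraries. Figures were drawn with matplotlib 3.10.9.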

Additional observations from a re-analysis of the deposited data

How the results depend on the processing

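No member and no gene of the wider export lists passed under any of the 13 alternatives in which it was tested, where the lowest adjusted p of a member was 0.664 (Thoc5). Calls over all genes went from 27 to 8 without the variance trend, to 8 with limma-voom on recovered reads and to 11 with the replicate block, and leaving out 1 library gave 11 to 19. Same-numbered libraries of the groups had correlated deviations of only 0.024, 0.0071 and 0.0037, and wild-type library 3 correlated more with KO library 2, so the numbers were not taken as pairs. Thoc5, Alyref, Thoc7 and Sarnp kept their sign in every fit. The sign of Thoc2 turned with limma-voom (0.022), and the other sign changes came from leaving out 1 library, where the log2 change ran from -0.21 to 0.19 for Thoc1, -0.11 to 0.17 for Thoc2, -0.22 to 0.094 for Thoc3, -0.26 to 0.056 for Thoc6, -0.27 to 0.32 for Nxf1 and -0.17 to 0.11 for Nxt1. Outside the members it ran from -0.11 to 0.37 for Zcchc8, -0.090 to 0.12 for Ddx39b, -0.071 to 0.30 for Ncbp1, -0.20 to 0.13 for Usp14, -0.47 to 0.20 for Dnajc14, -0.15 to 0.19 for Gm5253 and -0.0055 to 0.59 for Thoc2l. Fits without 1 library have fewer samples to estimate the spread. Median-of-ratios scaling changed no sign.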
